A study of Mus musculus with 7 samples.

Results

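The matrix glycoproteins, elastic fibre proteins and proteoglycans of cultured mouse epicardium were followed through 48 genes, out of 22738 gene rows. These genes were chosen by name with earlier results of these data known, and all 48 were found in the count tables. They were divided by role into 13 genes of elastic fibres and microfibrils, 16 adhesive and matricellular glycoproteins, and 19 proteoglycans and genes of hyaluronan. The explants came from hearts of E12.5 embryos, on a mixed background of C57BL/6 with 129S4Sv/Jae and 129S6/SvEvTac, and no treatment was given. There were 3 libraries from Lmnb1-/- embryos, which lack the nuclear lamina protein lamin B1, and 4 libraries from wild type embryos. Ventricles lay on gelatin for 48 hours, during which epicardial cells migrate out, and the remaining cells grew for 72 hours after the hearts were removed. The Lmnb1-/- genotype is that of the whole embryo as labelled, and the labels do not say whether libraries came from separate embryos or litters. The p-values therefore set the difference between groups against the spread between these libraries. If libraries shared embryos or litters, that spread may understate the spread between embryos.

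The extracellular matrix is the protein and sugar scaffold that cells secrete around themselves. Elastic fibres are built from an elastin core laid on microfibrils of fibrillin, with fibulins and microfibril-associated proteins joining them and lysyl oxidases crosslinking the elastin. Adhesive glycoproteins such as fibronectin bind integrins, matricellular proteins such as thrombospondins and periostin tune how cells respond to the matrix, and proteoglycans carry long glycosaminoglycan chains that hold water and growth factors. In the developing heart, epicardial cells and the fibroblasts and mural cells that derive from them are a source of such matrix, and hyaluronan with its receptor CD44 is known for its part in their migration.

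Total counts ran from 1786519 to 3066936 in the Lmnb1-/- libraries and from 1024898 to 2732236 in the wild type libraries, so that 3 counts made 0.978 to 1.68 CPM in Lmnb1-/- and 1.1 to 2.93 CPM in wild type. CPM are counts scaled to a common library size after TMM scaling, which corrects library totals for composition. Lmnb1 itself had 4, 2 and 4 counts in the Lmnb1-/- libraries, against 463, 185, 488 and 567 in the wild type libraries. Xist and Y-linked counts marked wild type replicates 1 and 3 as female, and the other 5 libraries as male. Defining markers of the epicardium were present, with 10 of 10 listed markers tested and summed levels of 1667 to 2116 CPM in Lmnb1-/- and 2199 to 2880 CPM in wild type. Values of single libraries are given in the order of replicates 1 to 3 for Lmnb1-/- and 1 to 4 for wild type.

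The promoters of 5 of the genes are printed because these genes lie on both sides of the comparison, with 3 that had lower and 2 that had higher mean levels in Lmnb1-/- explants. Fbln2 encodes fibulin 2 (chr6:91212514-91212813, plus strand), Fbn1 fibrillin 1 (chr2:125506389-125506688, minus strand), Bgn biglycan (chrX:73483351-73483650, plus strand), Cd44 the hyaluronan receptor (chr2:102901616-102901915, minus strand) and Sdc1 syndecan 1 (chr12:8771146-8771445, plus strand). Each sequence runs 5′ to 3′ from 250 bases before to 50 bases after the RefSeq start of transcription in GRCm38.p6, which is a later build than the mm9 of the submitters' notes. Capitals mark GGGCGG on either strand, the letters of a GC box.
Fbln2: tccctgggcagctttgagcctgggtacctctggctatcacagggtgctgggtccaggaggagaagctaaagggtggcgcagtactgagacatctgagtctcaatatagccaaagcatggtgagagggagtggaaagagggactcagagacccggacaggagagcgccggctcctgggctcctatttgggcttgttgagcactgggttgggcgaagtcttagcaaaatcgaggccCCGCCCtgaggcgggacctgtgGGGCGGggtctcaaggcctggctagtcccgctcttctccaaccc
Fbn1: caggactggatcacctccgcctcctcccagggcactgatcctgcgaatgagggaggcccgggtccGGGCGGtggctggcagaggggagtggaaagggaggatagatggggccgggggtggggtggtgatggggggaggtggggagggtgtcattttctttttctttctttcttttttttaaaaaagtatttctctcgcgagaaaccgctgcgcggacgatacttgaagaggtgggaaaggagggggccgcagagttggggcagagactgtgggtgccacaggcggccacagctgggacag
Bgn: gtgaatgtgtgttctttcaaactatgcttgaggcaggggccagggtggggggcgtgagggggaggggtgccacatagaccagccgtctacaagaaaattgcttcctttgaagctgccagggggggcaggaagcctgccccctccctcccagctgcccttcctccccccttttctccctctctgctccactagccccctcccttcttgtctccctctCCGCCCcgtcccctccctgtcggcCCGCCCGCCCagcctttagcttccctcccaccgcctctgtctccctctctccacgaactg
Cd44: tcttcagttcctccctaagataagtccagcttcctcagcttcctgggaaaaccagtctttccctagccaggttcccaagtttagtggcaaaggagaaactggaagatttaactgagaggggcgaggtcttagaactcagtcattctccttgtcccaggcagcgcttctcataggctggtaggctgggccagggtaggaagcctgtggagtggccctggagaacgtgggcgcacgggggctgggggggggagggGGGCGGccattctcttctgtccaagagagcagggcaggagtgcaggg
Sdc1: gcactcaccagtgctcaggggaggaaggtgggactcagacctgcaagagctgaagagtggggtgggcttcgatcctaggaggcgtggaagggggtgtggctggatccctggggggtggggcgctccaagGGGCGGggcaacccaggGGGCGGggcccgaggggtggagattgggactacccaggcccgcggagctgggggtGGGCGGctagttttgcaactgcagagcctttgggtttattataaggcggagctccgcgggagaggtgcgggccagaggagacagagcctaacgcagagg

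GGGCGG was found in all 5 printed promoters, with 3 matches in Sdc1, 3 in Bgn, where 2 of them overlap, 2 in Fbln2 and 1 each in Fbn1 and Cd44. RefSeq promoters were at hand for 26 of the tested genes, and 19 of these 26 held GGGCGG in at least 1 promoter. It was held by 61.1% of the 36 promoters of the 26 genes, and by 35.7% of all 32851 RefSeq promoters. The letters TATAAA were in 19.4% of those 36 promoters and 13.6% of all, GGAATG in 5.56% and 14.7%, and TGANTCA in 5.56% and 7.81%, counting both strands. No promoter of the 26 genes held a CArG box, the sequence that serum response factor binds, and 1.63% of all promoters did. At so low a share, finding none in 36 promoters does not set these genes apart from the rest. These are matches of letters in a short window and not measured binding sites.

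Levels of the matrix genes spanned a wide range when counts were set against transcript length. Sparc, encoding the collagen-binding glycoprotein osteonectin, stood first of the 48 by the mean over all libraries, at 1675 CPM per kilobase in Lmnb1-/- and 2154 CPM per kilobase in wild type explants. Thbs1, encoding thrombospondin 1, an anti-angiogenic matricellular protein that activates latent TGF-beta, followed at 1746 and 2054 CPM per kilobase in Lmnb1-/- and wild type. The SD over libraries was 122 and 464 CPM per kilobase for Sparc and 262 and 246 CPM per kilobase for Thbs1 in the same order of groups, so these neighbours did not differ beyond their spread. Fbln2 came next with 572 CPM per kilobase in Lmnb1-/- and 852 CPM per kilobase in wild type, and then Fn1, encoding fibronectin, with 331 and 581 CPM per kilobase. The next were the heparan sulfate proteoglycan genes Sdc4, encoding syndecan 4, at 233 CPM per kilobase in Lmnb1-/- and 272 in wild type, and Gpc3, encoding glypican 3, at 195 and 224 CPM per kilobase.

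**Figure D1:**
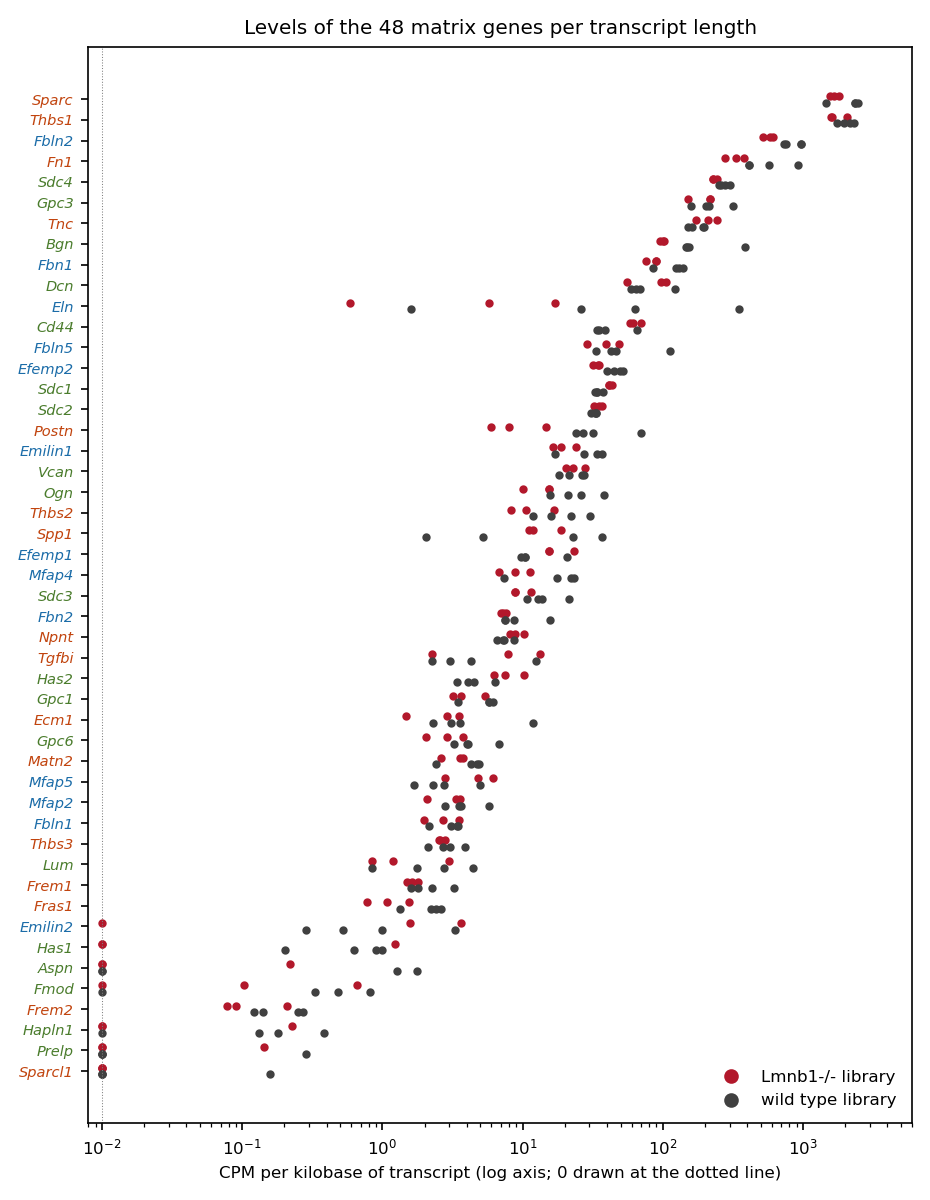
CPM per kilobase of the longest protein-coding transcript, on a log axis, for the 48 matrix genes in each of 3 Lmnb1-/- libraries (red) and 4 wild type libraries (grey), ordered by the mean over libraries, with a level of 0 drawn at 0.01 and gene names coloured blue for elastic fibre, orange for glycoprotein and green for proteoglycan genes. Sparc and Thbs1 lie highest and Sparcl1, with 1 count in all libraries, lowest.

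The count filter left 40 of the 48 genes for testing, and the other 8 were too low. These were Mfap2, encoding a microfibril glycoprotein, with 4 to 12 counts in each Lmnb1-/- library and 6 to 9 in each wild type library, and Frem2 of the Fraser complex with 2 to 5 and 3 to 8 counts. The hyaluronan synthase gene Has1 had 0 to 8 and 1 to 5 counts, and the hyaluronan link protein gene Hapln1 had 0 to 4 and 0 to 5 counts in Lmnb1-/- and wild type libraries. Fmod, encoding the collagen-binding proteoglycan fibromodulin, had 0 to 4 counts in Lmnb1-/- and 0 to 6 in wild type. Aspn, encoding asporin, had 0, 0 and 1 counts in Lmnb1-/- against 0, 0, 11 and 7 in wild type, so that its wild type counts came from replicates 3 and 4. Prelp had 1 count in Lmnb1-/- and 1 in wild type, and Sparcl1 had 0 in Lmnb1-/- and 1 in wild type. A difference in these genes was not detectable at this depth.

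None of the 40 tested matrix genes passed the threshold between genotypes, and most lay lower in Lmnb1-/- explants. Log2 fold changes of Lmnb1-/- over wild type were below 0 in 28 genes and above 0 in 12, with a median of -0.37, whereas 52.4% of all 10775 tested genes lay below 0 and their median was -0.02. In the quasi-likelihood test of edgeR, with p adjusted over all genes after Benjamini and Hochberg, 0 of the 40 had an adjusted p under 0.05, against 0.705% of all tested genes (76 genes, 39 higher and 37 lower, or 47 higher and 26 lower of 73 without TMM scaling). At an unadjusted p under 0.05 there were 17 of the 40, or 42.5%, against 13.6% of all tested genes. The matrix genes, and the lists of other genes below, were chosen with earlier results of these data known. Their shares set beside those of all tested genes therefore describe the lists and cannot show an excess. Of the 17, 13 were lower and 4 higher, where 7.43% of all tested genes were lower and 6.2% higher at that p. CPM ranges of the groups lay apart for 8 of the 40, or 20.0%, against 13.3% of all tested genes, and 7 of the 8 were lower and 1 higher in Lmnb1-/-, against 6.92% and 6.36% of all tested genes. DESeq2 called Fbln2 and Postn, both lower, against 2.13% of the genes to which it gave an adjusted p, and limma voom called 0 of the 40 against 0.538% of all tested genes.

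These counts depended on single libraries. Without wild type replicate 1, 9 of the 40 passed in the edgeR test, against 2.63% of all tested genes, 7 of the 9 being lower (Fbln2, Fbn1, Sparc, Emilin1, Mfap4, Ogn and Fras1) and 2 higher (Cd44 and Has2), while 1 (Bgn) passed without wild type replicate 2, against 0.374% of all. No gene of the 40 passed on leaving out any of the other 5 libraries in turn. Within the 5 male libraries, which leave out wild type replicates 1 and 3, Fbn1 and Mfap4 were called lower and Cd44 higher, where 0.895% of all tested genes were called. These 3 genes are among those called without wild type replicate 1 alone.

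**Figure D2:**
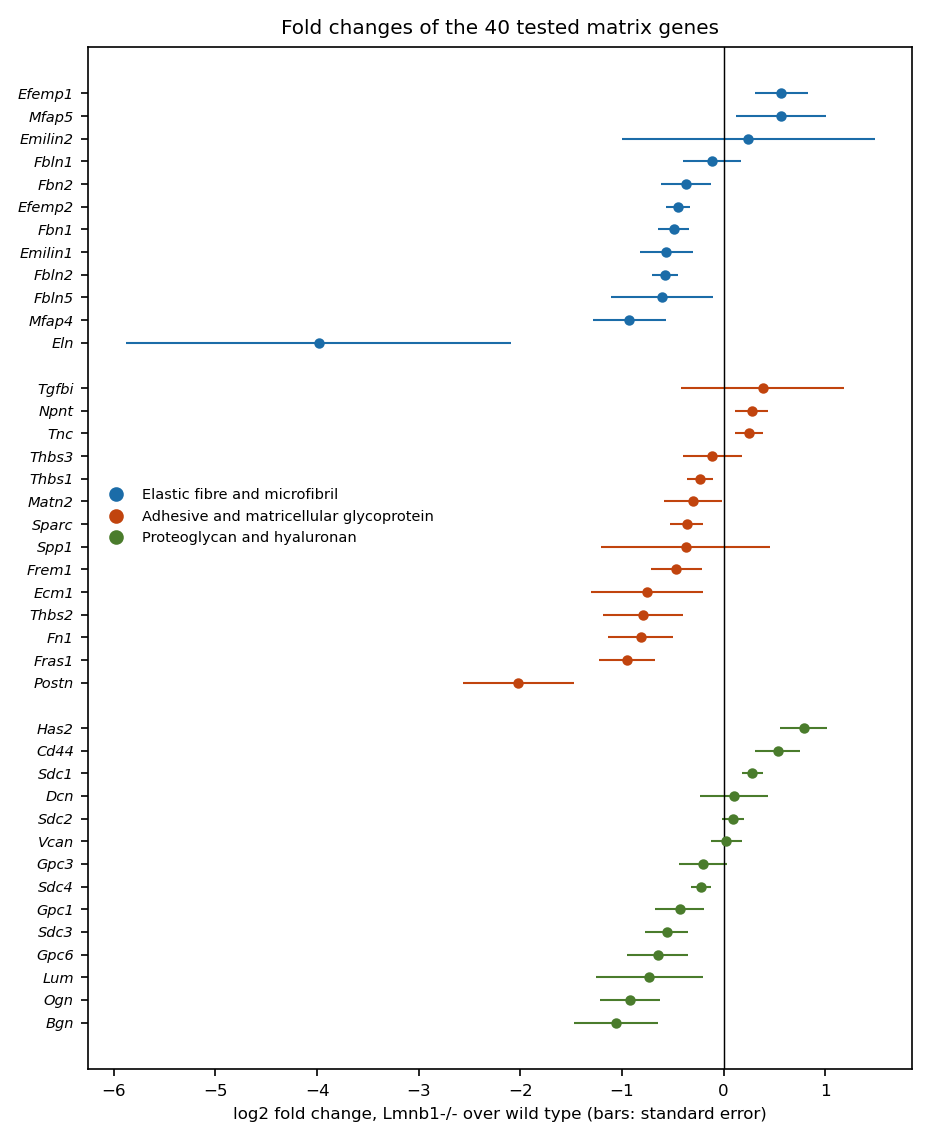
Log2 fold change of Lmnb1-/- over wild type for the 40 tested matrix genes, with bars of 1 standard error, in blue for elastic fibre, orange for glycoprotein and green for proteoglycan genes. Most points lie left of 0, Eln at -3.98 with the widest bar and Postn at -2.02, and Has2 lies furthest right at 0.79.

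The proteoglycan and hyaluronan class lay less evenly below 0 than the other classes, a description with no test. For elastic fibre genes the median was -0.47 in log2 fold change, and 9 of 12 tested genes were below 0. The glycoprotein class had a median of -0.37, with 11 of 14 below 0, and the median was -0.20 without wild type replicate 4. Proteoglycan and hyaluronan genes had a median of -0.21, with 8 of 14 below 0 and 6 above, and leaving out wild type replicate 4 brought it to -0.0031. This class did not change least gene by gene. At an unadjusted p under 0.05 in edgeR it had 57.1% of its tested genes, 5 lower and 3 higher. The elastic fibre class had 41.7%, the glycoprotein class 28.6% and all tested genes 13.6%. Summed levels of the elastic fibre class were 3881, 4664 and 4470 CPM in Lmnb1-/- and 5269, 7046, 8602 and 5911 CPM in wild type, so that every Lmnb1-/- library lay below every wild type library. Fbln2 alone made 62.4 to 64.3% of that sum in Lmnb1-/- and 53.7 to 68.6% in wild type. Without it the sums were 1384, 1742 and 1679 CPM in Lmnb1-/- and 1655, 2446, 3985 and 2423 CPM in wild type, and wild type replicate 1 lay within the Lmnb1-/- range. For the glycoproteins the sums were 19283, 17882 and 18464 CPM in Lmnb1-/- and 18436, 26201, 24905 and 24293 CPM in wild type, where wild type replicate 1 lay within the Lmnb1-/- range. Proteoglycan and hyaluronan sums were 2375, 2522 and 2460 CPM in Lmnb1-/- and 2600, 3086, 2476 and 2939 CPM in wild type, with wild type replicate 3 inside the Lmnb1-/- range. A sum follows its most abundant genes, as Thbs1 alone made 36.9 to 46.9% of the summed CPM of all 48 genes in Lmnb1-/- and 31.8 to 41.0% in wild type.

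Most markers of 2 cell types lay lower in Lmnb1-/- beside the matrix genes. All 10 tested of 11 listed smooth muscle and pericyte markers had negative log2 fold changes and 5 of them fell (Acta2, Actg2, Cspg4, Des and Pdgfrb), against 0.343% of all tested genes called lower. All 5 calls were lost on leaving out wild type replicate 3, and likewise on leaving out replicate 1 or 2 of Lmnb1-/-, while Cspg4 alone passed when replicate 3 of Lmnb1-/- was left out. The markers had summed levels of 8670 to 9458 CPM in Lmnb1-/- and 11309 to 12924 CPM in wild type. Of the epicardial markers 8 of 10 were below 0 and Krt8 and Krt19 above, with a median of -0.32. None was called, against 0.705% of all tested genes. At an unadjusted p under 0.05 in edgeR 3 were lower and 1 higher, against 7.43% and 6.2% of all tested genes. The 1 higher was Krt8, whose log2 fold change of 0.87 was the largest of the 10 in either direction, with CPM ranges apart. Every Lmnb1-/- sum of epicardial markers was below every wild type sum. The part of either kind of cell in the matrix values was not tested, and in bulk RNA fewer cells of a type and less RNA per cell cannot be told apart. Cardiomyocyte marker sums were 554 to 715 CPM in Lmnb1-/- and 554 to 901 CPM in wild type, with Myh7 at 0 counts in every library, and endothelial sums were 53.1 to 74.6 CPM in Lmnb1-/- and 36.1 to 79.7 CPM in wild type, with Cldn5 at 0. Of 10 endothelial markers 4 were tested, 3 above 0 and 1 below, with 0 called. CPM ranges of 2 of the 4, Kdr and Egfl7, lay apart and higher in Lmnb1-/-, against 6.36% of all tested genes. These 2 genes had only 3 to 25 counts in each library.

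**Figure D3:**
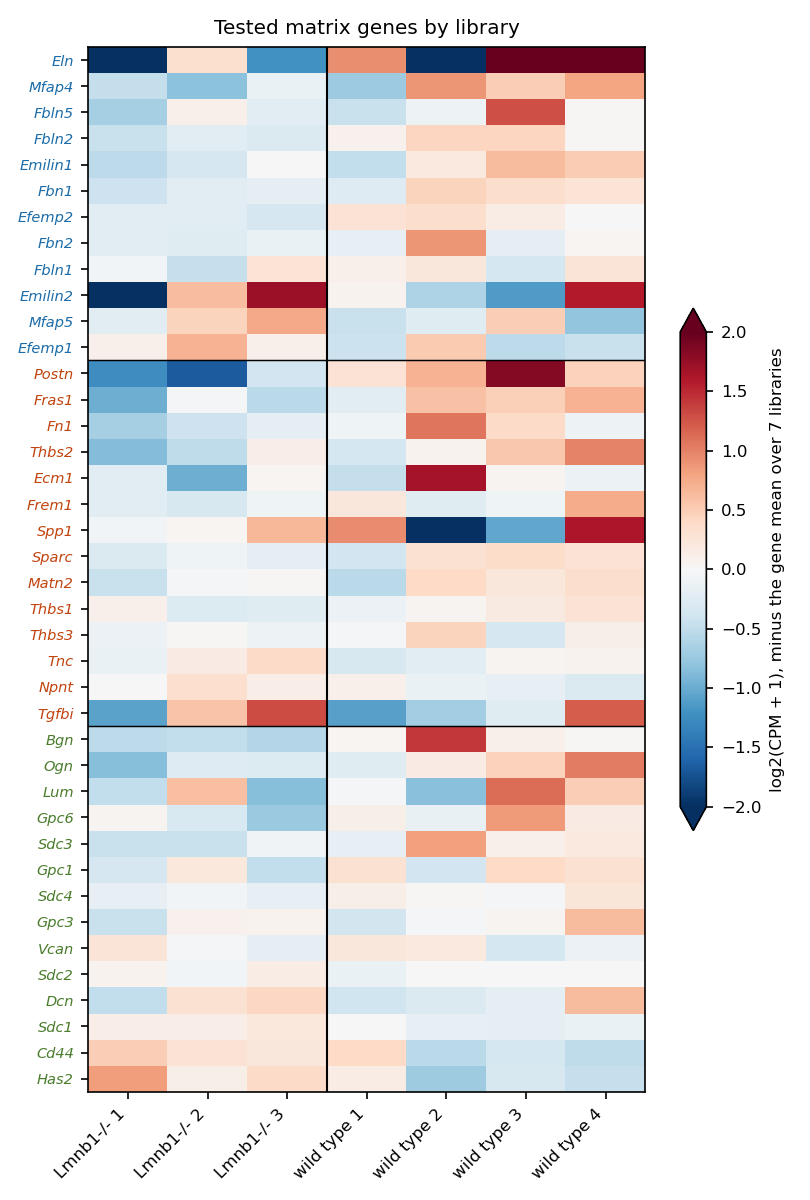
Each tested matrix gene (down) in each library (across, Lmnb1-/- left of the line and wild type right of it), as log2(CPM + 1) minus the mean of the gene over the 7 libraries, with the colour scale ending at -2 and 2 and names coloured by class as in the other plots. Eln, Emilin2, Spp1 and Tgfbi change more between libraries of 1 genotype than most genes, and wild type replicate 1 lies nearer to the Lmnb1-/- libraries than wild type replicates 2 to 4 for Cd44, Fbn1 and Sparc.

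Among elastic fibre genes, Fbln2 came nearest to the threshold. Its product fibulin 2 is a scaffold protein of microfibrils and basement membranes. Fbln2 had 2497, 2922 and 2791 CPM in Lmnb1-/- libraries, against 3613, 4600, 4617 and 3487 CPM in wild type libraries. Every Lmnb1-/- library lay below every wild type library. The log2 fold change was -0.58 (SE 0.13), a mean of 2737 ± 218 CPM in Lmnb1-/- and 4079 ± 613 CPM in wild type (SD, n = 3 and 4), with an adjusted p of 0.0594 in edgeR. Its adjusted p ran from 0.00195 to 0.245 over the 16 alternative settings, 4 of which called it.

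Efemp2, encoding fibulin 4, which elastic fibres need for assembly, showed the same order of groups. It had 91.3, 92.5 and 84.3 CPM in Lmnb1-/- libraries and 130, 136, 119 and 106 CPM in wild type libraries, with no overlap, a log2 fold change of -0.45 (SE 0.12) and an adjusted p of 0.110 in edgeR. Efemp1, encoding fibulin 3, lay the other way, at 31.2, 47.7 and 31.3 CPM in Lmnb1-/- and 21.3, 42.4, 20.0 and 21.1 CPM in wild type, where wild type replicate 2 fell within the Lmnb1-/- range. Its log2 fold change was 0.57 (SE 0.26, adjusted p = 0.365 by edgeR). Fbln5, encoding fibulin 5, averaged 227 ± 59.4 CPM in Lmnb1-/- and 341 ± 210 CPM in wild type (SD, n = 3 and 4), and the low Fbln1 ranged from 7.29 to 12.8 CPM in Lmnb1-/- and from 7.91 to 12.7 CPM in wild type.

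Fbn1, the main fibrillin of microfibrils, had 916, 1065 and 1078 CPM in Lmnb1-/- and 1024, 1671, 1561 and 1484 CPM in wild type. Wild type replicates 2 to 4 lay above all Lmnb1-/- libraries and wild type replicate 1 among them. The log2 fold change was -0.49 (SE 0.15, adjusted p = 0.168 by edgeR), and it was -0.63 within male libraries, with an adjusted p of 0.0378. Fbn2, encoding the fibrillin of embryonic microfibrils, had 80.1, 78.0 and 84.3 CPM in Lmnb1-/- and 82.6, 173, 82.1 and 95.3 CPM in wild type. Apart from wild type replicate 2, the levels of Fbn2 were alike, and its log2 fold change of -0.37 (SE 0.24) became -0.10 without that library.

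Eln, encoding elastin, varied between libraries of each genotype more than almost any tested gene. Its levels were 2.25, 65.6 and 22.1 CPM in Lmnb1-/- libraries, against 101, 6.2, 1358 and 246 CPM in wild type libraries, from raw counts of 7, 117 and 43 against 232, 6, 3606 and 584. The highest wild type library held 219 times the lowest, and the highest Lmnb1-/- library 29.2 times the lowest, where the median tested gene had a ratio of 1.49 among wild type libraries. Groups overlapped because wild type replicate 2 lay below 2 of the Lmnb1-/- libraries. The log2 fold change of -3.98 had an SE of 1.90 and an adjusted p of 0.449 in edgeR, and without wild type replicate 3 it was -2.17. The SD of log2 CPM within groups was 2.83, larger than in 99.97% of tested genes, against a median of 0.24 over all tested genes. The ratio of Fbn1 to Eln CPM, chosen after the values were seen, was 407, 16.2 and 48.8 in Lmnb1-/- and 10.1, 270, 1.15 and 6.03 in wild type, which spans a wide range in both genotypes.

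The remaining genes of the class encode proteins that sit on microfibrils or elastin. Mfap4, which binds elastin and fibrillin, had 15.1, 11.8 and 19.5 CPM in Lmnb1-/- and 12.6, 40.3, 30.5 and 38.0 CPM in wild type, where the fold change was -0.93 on the log2 scale (SE 0.36, adjusted p = 0.298 by edgeR). Within male libraries, which leave out wild type replicates 1 and 3, its log2 fold change was -1.33 and it was called. Without wild type replicate 1 alone Mfap4 was at -1.20 and was also called, and no other of the 16 alternative settings called it. Emilin1, encoding an elastin-microfibril interface protein, had 63.3, 72.9 and 92.0 CPM in Lmnb1-/- and 65.2, 105, 143 and 132 CPM in wild type, with a log2 fold change of -0.56 (SE 0.26). For both genes wild type replicate 1 lay within the Lmnb1-/- range and the other wild type libraries above it. Mfap5, a low gene encoding a microfibril glycoprotein, had 4.18, 7.29 and 9.25 CPM in Lmnb1-/- and 3.48, 4.13, 7.53 and 2.53 CPM in wild type, and the groups overlapped.

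**Figure D4:**
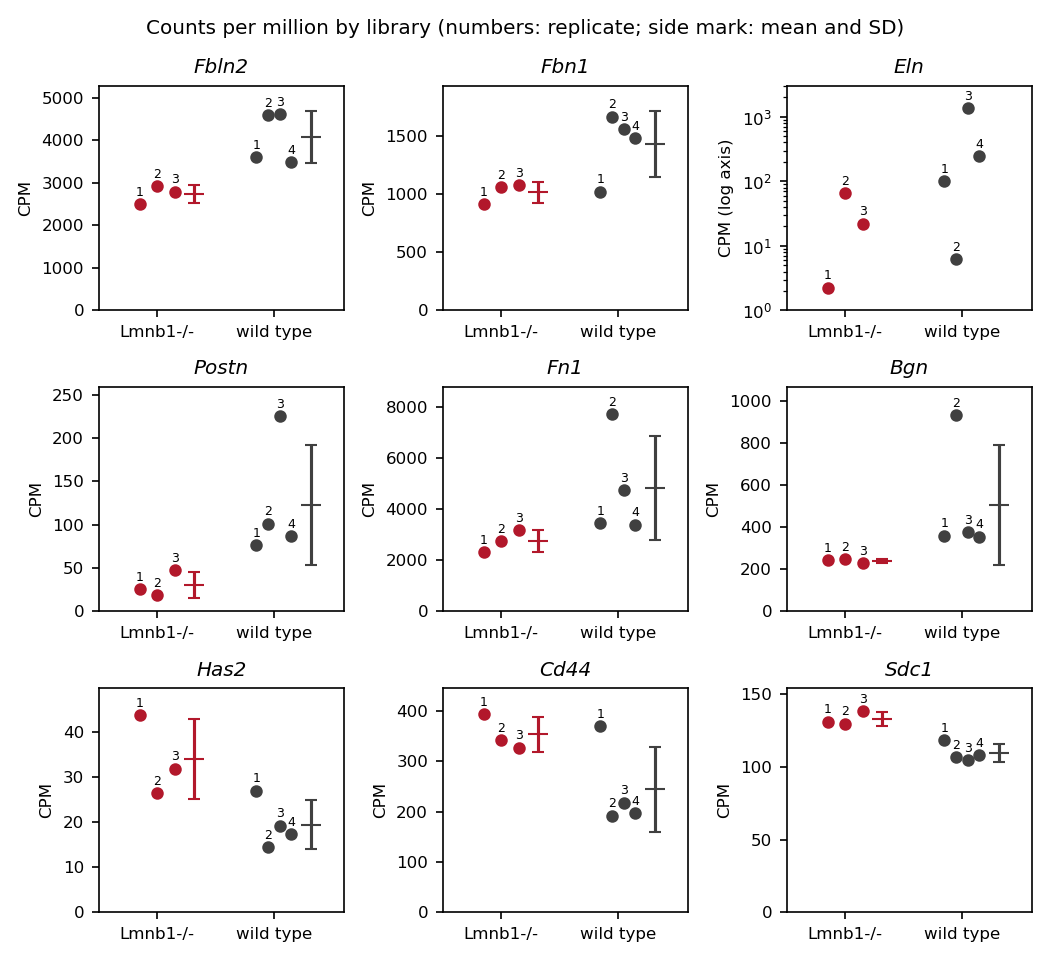
CPM per library of 9 matrix genes, Lmnb1-/- in red on the left and wild type in grey on the right, with the replicate number over each point and the mean and SD beside it, except for Eln, which is on a log axis without a mean. Fbln2, Postn, Fn1 and Bgn are lower in every Lmnb1-/- library than in any wild type library, Sdc1 is higher in every one, and for Cd44, Has2, Fbn1 and Eln the groups overlap.

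Among adhesive and matricellular genes, Postn and Fn1 lay lower in every Lmnb1-/- library. Postn encodes periostin, a matricellular protein of fibroblasts and valve cushions, and had 25.7, 19.1 and 47.3 CPM in Lmnb1-/- libraries, against 76.6, 101, 225 and 86.4 CPM in wild type libraries. The groups did not overlap, the log2 fold change was -2.02 (SE 0.55), or 24.7% of the wild type level, and the adjusted p was 0.221 in edgeR. Over the 16 alternative settings the adjusted p ran from 1.99e-04 to 0.477, and 2 of them, DESeq2 among these, called it. Fn1 had 2310, 2757 and 3179 CPM in Lmnb1-/- and 3452, 7722, 4761 and 3403 CPM in wild type, with a log2 fold change of -0.81 (SE 0.32) and an adjusted p of 0.343 by edgeR, and without wild type replicate 2 it was -0.49. Its lowest wild type libraries, replicates 1 and 4, lay close above Lmnb1-/- replicate 3.

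Sparc had 3588, 4145 and 3823 CPM in Lmnb1-/- and 3362, 5419, 5643 and 5393 CPM in wild type. Wild type replicate 1 was the lowest of all 7 libraries and the other wild type libraries were the highest, and the log2 fold change was -0.36 (SE 0.16, adjusted p = 0.347 by edgeR). Without wild type replicate 1 it was -0.51 with an adjusted p of 0.0186. That was the only 1 of the 16 alternative settings to call Sparc, and its adjusted p ran up to 0.596 over them. Thbs1 averaged 10211 ± 1530 CPM in Lmnb1-/- and 12011 ± 1438 CPM in wild type (SD, n = 3 and 4), a log2 fold change of -0.23 (SE 0.13), and Thbs2 averaged 70.0 ± 25.8 and 119 ± 47.6 CPM. Thbs3, another thrombospondin, was low in both groups, at 8.41 ± 0.496 and 9.39 ± 2.34 CPM.

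Tnc, encoding tenascin C, a large glycoprotein of tissues under remodelling, was not lower in Lmnb1-/- explants. It had 1223, 1494 and 1740 CPM in Lmnb1-/- and 1073, 1151, 1382 and 1399 CPM in wild type, giving 0.25 in log2 fold change (SE 0.14, adjusted p = 0.454 by edgeR). The ratio of Tnc to Postn CPM, chosen after the values were seen, was 47.5, 78.3 and 36.8 in Lmnb1-/- libraries and 14.0, 11.4, 6.15 and 16.2 in wild type libraries. The groups did not overlap, but Postn alone already lay apart, so the ratio adds no separate support. Of the lower glycoprotein genes, Npnt, encoding the integrin ligand nephronectin, had 37.6, 47.7 and 41.1 CPM in Lmnb1-/- and 40.5, 34.1, 33.5 and 30.4 CPM in wild type (log2 fold change 0.27, SE 0.16). Matn2, encoding the adaptor protein matrilin 2, had 9.33, 12.9 and 13.4 CPM in Lmnb1-/- and 8.70, 17.6, 15.4 and 16.9 CPM in wild type. Ecm1, encoding extracellular matrix protein 1, had 5.47, 2.80 and 6.68 CPM in Lmnb1-/- and 4.35, 22.7, 6.78 and 5.90 CPM in wild type, where wild type replicate 2 stood alone.

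The Fraser complex joins epithelia to the matrix beneath them, and its genes were expressed at low levels. Fras1 had 12.2, 24.7 and 17.0 CPM in Lmnb1-/- and 21.3, 38.2, 35.4 and 41.3 CPM in wild type, with a log2 fold change of -0.95 (SE 0.27) and an adjusted p of 0.148 in edgeR. Wild type replicate 1 was below Lmnb1-/- replicate 2, and the other wild type libraries were above all Lmnb1-/- libraries. Frem1 had 15.8, 14.6 and 17.5 CPM in Lmnb1-/- and 21.7, 15.5, 17.3 and 31.6 CPM in wild type, and the groups overlapped.

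After Eln, the widest spread within groups among the tested matrix genes was in Emilin2, Spp1 and Tgfbi, at an SD of 1.62, 1.39 and 1.1 on the log2 scale, and these are named after their values were seen. Tgfbi, encoding a TGF-beta induced adhesion protein, had 6.11, 21.3 and 36.0 CPM in Lmnb1-/- and 6.09, 8.27, 11.7 and 33.7 CPM in wild type. Emilin2, an EMILIN protein gene, had 0, 6.17 and 14.4 CPM in Lmnb1-/- and 3.91, 2.07, 1.13 and 13.1 CPM in wild type. Spp1, encoding osteopontin, had 16.7, 17.9 and 28.3 CPM in Lmnb1-/- and 34.4, 3.10, 7.91 and 55.2 CPM in wild type. Summed levels of the 11 macrophage and leukocyte markers were 42.4, 221 and 524 CPM in Lmnb1-/- and 123, 67.2, 79.5 and 314 CPM in wild type and 7 of the 11 were tested. Lmnb1-/- replicate 3 and wild type replicate 4 were the highest libraries of their genotypes for the marker sum and for these 3 genes, and also for other matrix genes such as Dcn, Thbs2, Tnc and Frem1. Among wild type libraries the marker sum was next highest in replicate 1, as were Spp1 and Emilin2, whereas Tgfbi was lowest there. The summed level of 9 erythroid markers was also highest in Lmnb1-/- replicate 3 and wild type replicate 4 of their genotypes, at 266 and 220 CPM. The part of macrophages or of blood cells in the values of Tgfbi, Emilin2 and Spp1 was not tested. The log2 fold changes of these 3 genes, 0.38, 0.24 and -0.37, had SEs of 0.80, 1.24 and 0.83.

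**Figure D5:**
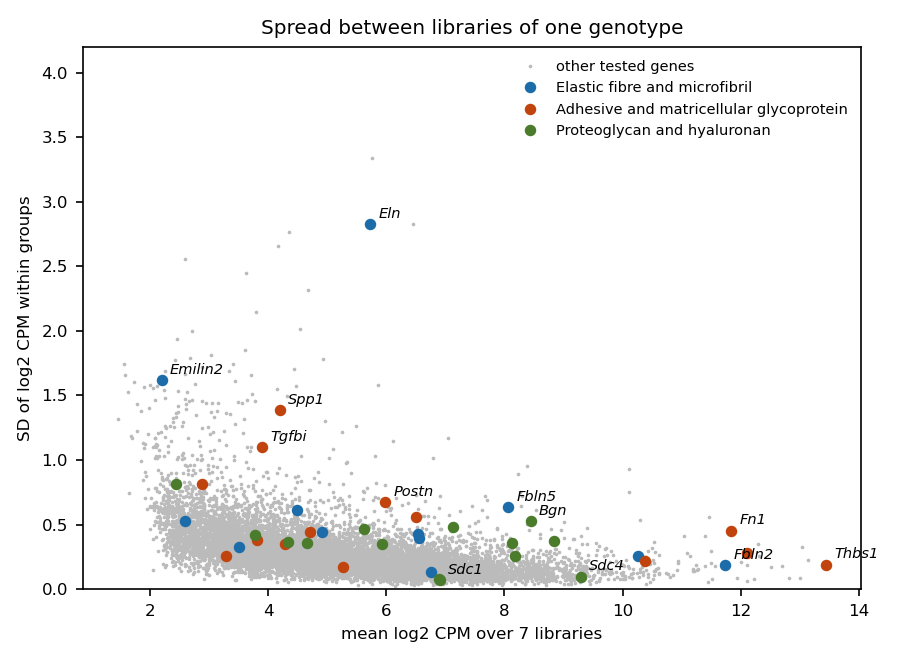
SD of log2 CPM within groups (up) against mean log2 CPM over 7 libraries (across) for all tested genes (pale points) and the 40 matrix genes (coloured by class). Eln lies at an SD of 2.83, Emilin2 at 1.62, Spp1 at 1.39 and Tgfbi at 1.1, while Sdc1 lies at 0.07 and Sdc4 at 0.10.

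The small leucine-rich proteoglycans bind collagen and shape its fibrils, and those tested lay lower in Lmnb1-/- explants except Dcn. Bgn had 242, 247 and 230 CPM in Lmnb1-/- libraries, against 359, 932, 375 and 354 CPM in wild type libraries. The groups did not overlap and wild type replicate 2 stood far above the rest. The log2 fold change was -1.06 (SE 0.41, adjusted p = 0.349 by edgeR), and without wild type replicate 2 it was -0.59 with an adjusted p of 0.0271, a smaller fold with less spread. That was the only 1 of the 16 alternative settings to call Bgn, and its adjusted p ran up to 0.604 over them. Ogn, encoding osteoglycin, had 26.0, 39.8 and 39.6 CPM in Lmnb1-/- and 40.5, 53.7, 66.7 and 98.3 CPM in wild type, with the groups just apart, a log2 fold change of -0.92 (SE 0.30) and an adjusted p of 0.235 by edgeR. Lum, encoding lumican, was low, with 2.89, 7.29 and 2.06 CPM in Lmnb1-/- and 4.35, 2.07, 10.9 and 6.75 CPM in wild type. Dcn, encoding decorin, averaged 151 ± 46.6 CPM in Lmnb1-/- and 139 ± 51.7 CPM in wild type (SD, n = 3 and 4), a log2 fold change of 0.10 (SE 0.33).

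Among the genes of hyaluronan, Has2 and Cd44 lay above 0 in every alternative setting, none of which moved them below it, and Vcan lay near 0. Has2, encoding the main hyaluronan synthase of the embryonic heart, had 43.7, 26.4 and 31.9 CPM in Lmnb1-/- and 27.0, 14.5, 19.2 and 17.3 CPM in wild type. Only wild type replicate 1 reached the lowest Lmnb1-/- library. The log2 fold change was 0.79 (SE 0.23), a fold of 1.73, with an adjusted p of 0.147 in edgeR. Cd44 had 394, 342 and 327 CPM in Lmnb1-/- and 370, 192, 218 and 197 CPM in wild type, again with wild type replicate 1 inside the Lmnb1-/- range. Its log2 fold change was 0.53 (SE 0.22, adjusted p = 0.348 by edgeR), and without wild type replicate 1 it was 0.81 with an adjusted p of 0.00449. Over the 16 alternative settings the adjusted p of Cd44 ran from 0.00449 to 0.598, and 2 of them called it. Vcan, encoding versican, the hyaluronan-binding proteoglycan of the embryonic heart, had 346, 285 and 255 CPM in Lmnb1-/- and 341, 331, 227 and 267 CPM in wild type, with a log2 fold change of 0.03 (SE 0.15).

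Syndecans and glypicans carry heparan sulfate at the cell surface and act as co-receptors, and none of the 7 passed the test, with 5 below 0 and 2 above. Sdc1 had 131, 130 and 138 CPM in Lmnb1-/- and 118, 106, 104 and 108 CPM in wild type. Every Lmnb1-/- library lay above every wild type library, with a log2 fold change of 0.28 (SE 0.10) and an adjusted p of 0.262 by edgeR. Sdc3 had 43.7, 43.7 and 57.0 CPM in Lmnb1-/- and 53.1, 106, 64.0 and 68.3 CPM in wild type, with wild type replicate 1 below Lmnb1-/- replicate 3 (log2 fold change -0.56, SE 0.21, adjusted p = 0.279 by edgeR). Sdc4, the syndecan of focal adhesions, had 559, 602 and 561 CPM in Lmnb1-/- and 679, 638, 618 and 742 CPM in wild type, without overlap, and with -0.22 in log2 fold change (SE 0.10, adjusted p = 0.359 by edgeR). Sdc2 was near equal, at 123 ± 8.68 CPM in Lmnb1-/- and 115 ± 4.73 CPM in wild type (SD, n = 3 and 4). Of the glypicans, Gpc3 averaged 431 ± 85.4 CPM in Lmnb1-/- and 496 ± 148 CPM in wild type, Gpc1 averaged 17.0 ± 4.81 and 22.0 ± 5.09 CPM, and Gpc6 ranged from 7.19 to 13.2 CPM in Lmnb1-/- and from 11.4 to 23.7 CPM in wild type, a log2 fold change of -0.65 (SE 0.30) that was -0.37 without wild type replicate 3.

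Genes outside the 48 that build or crosslink the same matrix included 4 that passed the edgeR test over all genes. Of all tested genes 0.705% passed, 0.362% higher and 0.343% lower. Of 9 genes of lysyl oxidases and latent TGF-beta binding proteins, all tested, 1 fell and 0 rose, their median being -0.35 in log2 fold change. The gene that fell was Loxl1, whose enzyme crosslinks elastin, with 66.6, 56.6 and 76.1 CPM in Lmnb1-/- and 92.2, 165, 116 and 121 CPM in wild type (log2 fold change -0.87, SE 0.18, adjusted p = 0.0491 by edgeR). No Lmnb1-/- library reached the lowest wild type library. Ltbp2, encoding a latent TGF-beta binding protein, had a log2 fold change of -1.26 (SE 0.41) and did not pass.

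Of 38 genes that make and modify glycosaminoglycan chains, 35 were tested, 2 rose and 0 fell, their median being -0.06 in log2 fold change. Ugdh, whose enzyme makes the UDP-glucuronate used for hyaluronan and for heparan and chondroitin sulfate, had 374, 369 and 429 CPM in Lmnb1-/- and 261, 179, 205 and 241 CPM in wild type. The groups lay well apart, and the log2 fold change was 0.81 (SE 0.13, adjusted p = 0.0193 by edgeR). Chst11, encoding a chondroitin 4-sulfotransferase, had 179, 162 and 158 CPM in Lmnb1-/- and 117, 123, 91.5 and 118 CPM in wild type (log2 fold change 0.58, SE 0.12, adjusted p = 0.0491 by edgeR). Ugdh lost its call without wild type replicate 3 or any of the Lmnb1-/- replicates, Loxl1 without any library other than wild type replicate 1, and Chst11 likewise, and also within male libraries.

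Of 27 other proteoglycan and hyaluronan genes 7 were tested, and 1 fell, Cspg4, encoding the pericyte proteoglycan NG2, at 64.7 ± 15.2 CPM in Lmnb1-/- and 153 ± 23.0 CPM in wild type (SD, n = 3 and 4; adjusted p = 0.00819 by edgeR). Cspg4 is also in the list of smooth muscle and pericyte markers, and lost its call without wild type replicate 3 or Lmnb1-/- replicate 1 or 2. Acan, encoding the large cartilage proteoglycan aggrecan, had 0.643, 6.17 and 1.03 CPM in Lmnb1-/- and 23.1, 5.17, 64.8 and 14.3 CPM in wild type, and did not pass. Of 37 other matrix glycoprotein genes 13 were tested and 0 passed, with 11 of the 13 below 0 and a median of -0.25. In edgeR 2 of the 13, or 15.4%, had an unadjusted p under 0.05, near the 13.6% of all tested genes. The smallest p-values there belonged to Igfbp7, with a log2 fold change of -0.50 (SE 0.16), and Wisp1, with -0.25 (SE 0.11).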

How the data were processed

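RNA was extracted with the PicoPure kit and libraries were made with the TruSeq RNA v2 kit, per the labels' protocols. TopHat, edgeR and mm9 are named in the submitters' processing notes, and the annotation, counting program and settings are not given in the sources used here. Every deposited table held 22738 gene rows and 2 unnamed columns of whole-number counts, not normalized as far as the values show. The first deposited count column was used. The second, 16.6 to 19.6% of both columns' counts per library and 0.272 to 0.443% for the 48 genes, has no stated meaning and was used only in 1 alternative. Rows that repeat a gene name (649) were kept apart. The kit does not mark strand, so reads of genes overlapping on opposite strands cannot be told apart.

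Counts were filtered with filterByExpr (10775 genes left), scaled by TMM and tested with edgeR 4.0.16 (limma 3.58.1, R 4.3.3) by the robust quasi-likelihood test without covariates, Benjamini-Hochberg adjusted over all genes, threshold 0.05. The SE was taken as |log2 fold change| / √F. Transcript lengths came from GENCODE M21 and promoters from RefSeq GRCm38.p6. The 48 genes, classes and lists were chosen with earlier results of these data known. Values per library are given for up to 3 genes of smallest p and the most abundant per length in each of 9 subgroups, and other lists are named by their 2 smallest p-values and any call.

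Alternatives were RLE factors, no scaling, no count filter, a CPM of at least 1 in 3 libraries, DESeq2 1.42.0, limma voom, both count columns summed, a replicate block, male libraries only and each library left out. The procedure was also tested on simulated data, where most changes of 2-fold but only a minority of those of 1.5-fold were recovered. The changed genes were drawn from all tested genes, whose median SD of log2 CPM within groups was 0.24. The 40 matrix genes had a median SD of 0.39, and recovery among them was not measured. The first simulated set gave slightly more false calls than the limit set for it, after which further sets were added and all were pooled, with false calls a little above the nominal level. Chi-square per degree of freedom between replicates of a genotype was 2.22 to 7.71, so no library repeats another within sampling noise.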

Additional observations from a re-analysis of the deposited data

Results flagged for a closer look

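In 7 of the 26 wild type groups of 4 libraries examined, the highest or lowest library stood far from the others (Dixon's ratio above its 95% critical value). Chance flags about 1 in 20 independent groups of normal values. The 26 groups are genes measured in the same 4 libraries and named largely by small p, so that rate is no measure for them. Wild type replicate 2, the shallowest library, was the far one in 4 of the 7, with 173 CPM for Fbn2, 42.4 CPM for Efemp1, 22.7 CPM for Ecm1 and 932 CPM for Bgn, each the highest of its group. Wild type replicate 1 was the lowest for Sparc, at 3362 CPM, and the highest for Cd44, at 370 CPM. Wild type replicate 3 was the highest for Postn, at 225 CPM.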

How the results depend on the processing

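The number of genes called among all tested was 76, and it was 180 without the count filter, 176 with DESeq2 and 44 with both count columns summed, while leaving out single libraries gave 3 to 279. Of the 48 matrix genes 0 were called, against 2 without the filter (Fbln2 and Fras1), 2 with DESeq2 (Fbln2 and Postn), 2 with the replicate block (Fbln2 and Postn), 3 in male libraries (Fbn1, Mfap4 and Cd44) and 0 to 9 with single libraries left out. Whether replicate numbers pair the libraries is not known. Deviations from the group means correlated at 0.264, -0.158 and -0.0898 for same-numbered libraries and at -0.45 to 0.332 for other pairs. So few pairs cannot settle pairing. The block called 77 genes, 35 of them shared with the 76. The glycoprotein median was -0.60 in male libraries, -0.19 with the block and -0.49 to -0.20 with single libraries left out, and the proteoglycan median was -0.088 with the block and -0.28 to -0.0031 with single libraries left out. Of 636 values of log2 fold change for matrix genes under alternatives, 596 kept direction without crossing the threshold, 19 came to pass it and 21 changed sign. DESeq2 gave no adjusted p for 8 of the genes, which were sorted by direction alone in that setting. With limma voom Emilin2 was at -1.16 and Spp1 at 0.10. With the replicate block Spp1 was at 0.53, Vcan at -0.0064 and Gpc3 at 0.0064. In male libraries Emilin2 was at -0.47, Tgfbi at -0.22, Dcn at -0.18 and Vcan at -0.0060. Leaving out single libraries gave -0.30 to 0.050 for Fbln1, -1.06 to 0.94 for Emilin2, -0.25 to 0.0083 for Thbs3, -0.71 to 0.33 for Spp1, -0.27 to 1.21 for Tgfbi, -0.065 to 0.42 for Dcn, -0.11 to 0.13 for Vcan and -0.34 to 0.025 for Gpc3. The cause was not tested. In wild type replicate 2, 3 counts made 2.93 CPM, which limits the low genes.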
